A study of Mus musculus with 7 samples.

Results

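Semaphorins, plexins and neuropilins are the ligands, the signalling receptors and the binding coreceptors of one guidance system of growing axons. Members were taken by symbol, as every Sema, Plxn and Nrp1 or Nrp2 gene in the authors' deposited table of expression with and without NeuroD1 induction. The rule found 31 of the 21937 genes of that table, of which 20 were semaphorins, 9 plexins and 2 neuropilins. All 31 had a p-value in the authors' deposited table, none was listed at 0 in either group, and 30 had a mean of at least 10 normalised reads in the higher group.

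RNA came from A2lox mouse embryonic stem cells of the 129/Ola background, which carry a NeuroD1 transgene switched on by doxycycline. The induced group was 2 libraries of cells given 500 ng/ml doxycycline for 48 h, and the uninduced group was 2 libraries of the same line without the drug. Both groups carried the transgene and had been grown on feeder fibroblasts, which were removed by passaging on gelatin before the experiment. No group had doxycycline without the transgene, so an effect of the drug cannot be told apart from one of NeuroD1. The NeuroD1 immunoprecipitation samples (2, after 24 h) and the input DNA sample were not analysed here.

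Semaphorins share an extracellular sema domain, which binds the sema domain of a plexin. Class 3 members are secreted and mostly need a neuropilin to bind, with an A-type plexin passing the signal, whereas classes 4 to 6 span the membrane, class 7 is held by a lipid anchor, and these bind plexins directly. Inside the cell a plexin acts on small GTPases of the Ras and Rap type, and the usual outcome in an axon is local collapse of the growth cone, although some pairs attract.

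Values are the authors' group means of normalised read counts, so no spread between libraries can be given beside them, and the precision of each mean is unknown. The adjusted p-values come from DESeq, run by the authors, after a Benjamini-Hochberg adjustment over 18283 genes, and "called" means an adjusted p under 0.05. Whether the libraries of a group are separate cultures is not given, and the p-values may then reflect technical spread alone. NeuroD1 itself (Neurod1, transgene and endogenous gene together) was at 4371 normalised reads in induced and 438 in uninduced cells in the authors' deposited table (9.98-fold, adjusted p = 4.5e-274). Stem cell markers were present in both groups. Their 12 genes summed to 38928.5 reads in induced and 75190.5 in uninduced cells. Of them 11 were called lower (91.7%, against 16.4% of all tested genes). Of 12 neuronal markers 11 were called higher (91.7%, against 19.1% of all tested genes), with sums of 23816 in induced and 6582 in uninduced cells. In bulk RNA, fewer cells of a type and less RNA per cell cannot be told apart.

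Members moved in both directions. Of the 31, 15 were called higher in induced cells in the authors' deposited table (48.4%, against 19.1% of all tested genes) and 8 were called lower (25.8%, against 16.4%). Among the 14388 genes that averaged at least 10 over both groups, which is the range of nearly all members, 23.8% were called higher and 20.7% lower. Of the 29 members in that range 15 were called higher and 8 lower. The share of members called lower was not far above that background, and the difference was not tested. A call with a change of at least 2-fold was made for 8 members that rose, or 25.8% (7.48% of all tested genes), and for 2 that fell, or 6.45% (4.20% of all tested genes). The median log2 change, computed with a pseudocount of 1, was 0.32 over the members and -0.0094 over all tested genes. Members were not compared with the rest by a set test.

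**Figure D1:**
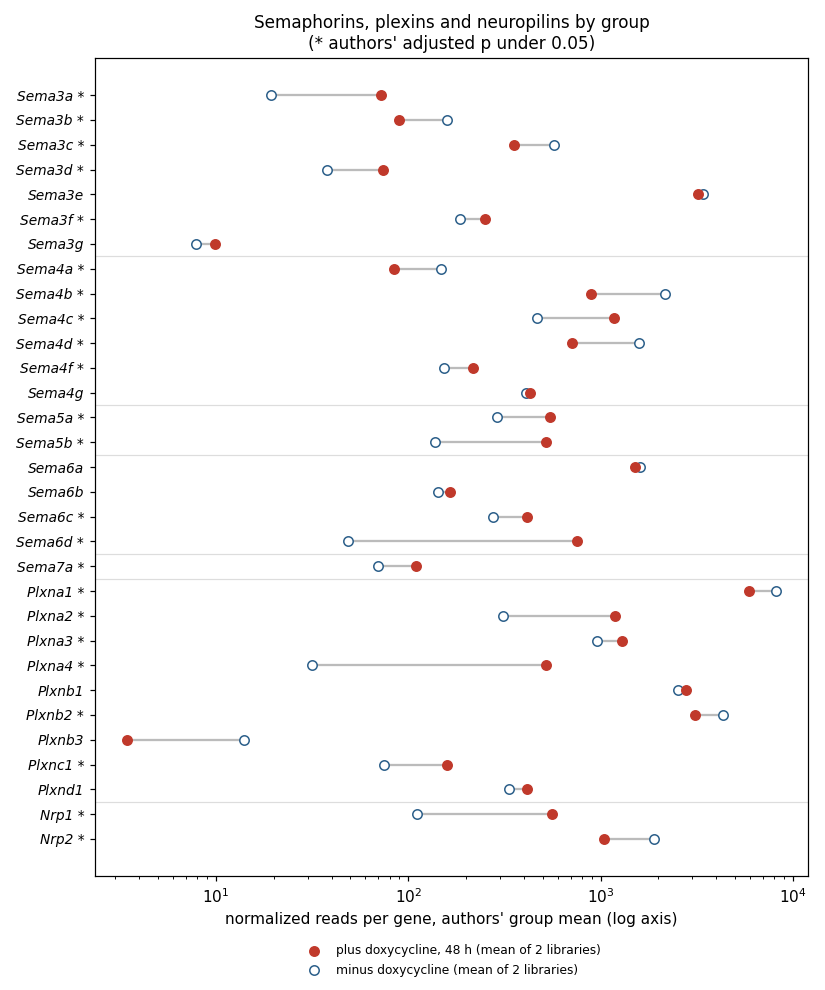
Authors' group means of normalised reads for the 31 genes on a log axis, with filled points for induced cells, open points for uninduced cells and a line joining the 2 means of a gene; error bars cannot be drawn from group means. The widest gaps among called genes are those of Plxna4 (519 in induced against 31.7 in uninduced cells) and Sema6d (750.3 in induced against 48.4 in uninduced cells).

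Ligands and receptors showed a similar balance of calls when no fold minimum was set. With a minimum of 2-fold the ligands had 4 calls higher and 2 lower, and the receptors 4 higher and 0 lower. At that minimum 7.48% of all tested genes were called higher and 4.20% lower. The difference between ligands and receptors in these counts was not tested. Without a fold minimum 10 of the 20 semaphorins rose (50.0%), 5 fell (25.0%) and 5 were not called. Of the 11 receptors 5 rose (45.5%), 3 fell (27.3%) and 3 were not called. With no fold minimum the shares over all tested genes were 19.1% higher and 16.4% lower. Among genes averaging at least 10 they were 23.8% and 20.7%. The median log2 change was 0.36 for ligands and 0.32 for receptors, and the difference between these medians was not tested. Summed reads were 11611 in induced and 11891 in uninduced cells for the ligands (ratio 0.976), and 17000.5 in induced and 18741 in uninduced cells for the receptors (ratio 0.907). The largest called change of a single gene was 16.4-fold, in Plxna4. The sums are dominated by a few abundant genes, among them Plxna1 and Sema3e.

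**Figure D2:**
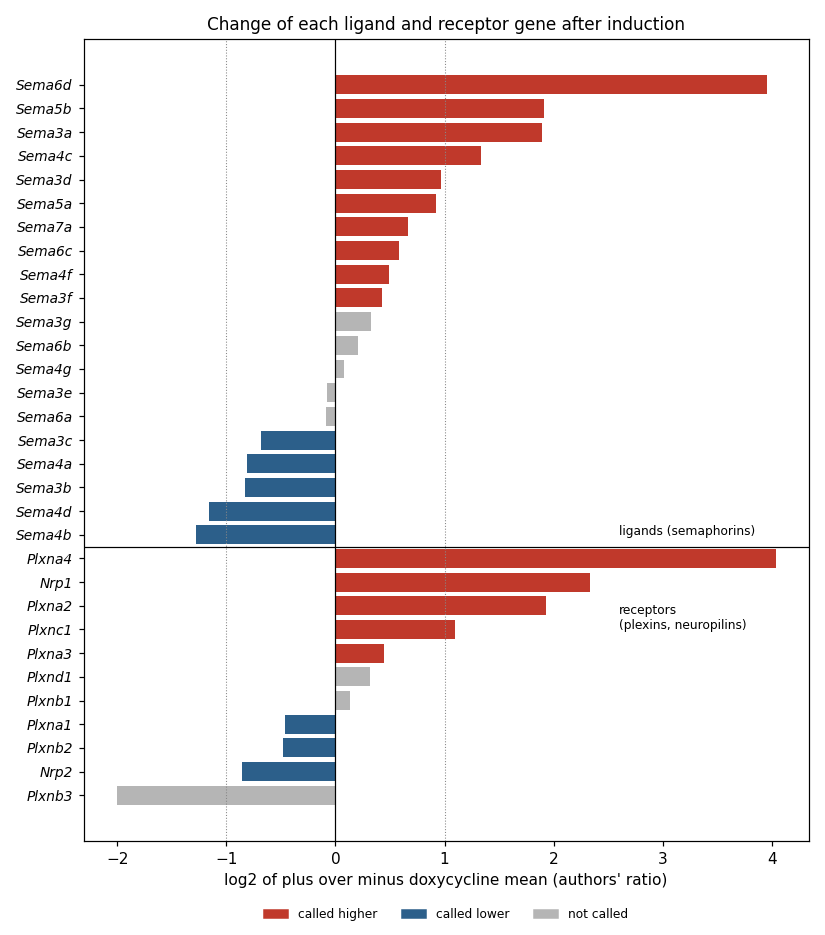
Authors' log2 ratio of induced over uninduced means per gene, with semaphorins above the line and plexins and neuropilins below it, and dotted lines at a 2-fold change. Red bars are genes called higher, blue bars genes called lower and grey bars genes not called, including Plxnb3, whose low means (3.47 in induced and 13.9 in uninduced cells) give a long bar without a call.

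Secreted class 3 semaphorins changed in opposite directions. In the authors' deposited table Sema3a, the repellent that gave the family its collapsing activity, was at 72.0 normalised reads in induced and 19.3 in uninduced cells (3.72-fold, adjusted p = 0.0016). Sema3d, known from the patterning of veins, rose 1.96-fold to 73.9 in induced cells, against 37.7 in uninduced cells (adjusted p = 0.0099 in the authors' deposited table). Sema3f, the main ligand of neuropilin 2, rose 1.34-fold to 251 in induced cells, against 187 in uninduced cells (adjusted p = 0.043 in the authors' deposited table), a call that is lost at a threshold of 0.01.

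The class 3 members that fell were Sema3b and Sema3c. Sema3b, a ligand of neuropilins, was at 89.7 reads in induced and 159 in uninduced cells, which is 0.564 times the uninduced mean (the authors' adjusted p = 7.5e-04, deposited table). Sema3c, which guides neural crest cells in the outflow tract of the heart, was at 356 in induced and 569.9 in uninduced cells, or 0.625 times the uninduced mean (adjusted p = 0.026 in the authors' deposited table), and its call is lost at a threshold of 0.01. Sema3e, which binds plexin D1 without a neuropilin, had the most class 3 reads per kilobase of exon in both groups. Its means were 3224 in induced and 3405 in uninduced cells, 0.947 times the uninduced mean, and it was not called (adjusted p = 0.65 in the authors' deposited table). Sema3g, known from endothelial cells, had low means, at 9.93 reads in induced and 7.94 in uninduced cells (1.25-fold, adjusted p = 0.93 in the authors' deposited table). Of the 7 class 3 genes 3 were called higher (42.9%, against 19.1% of all tested genes) and 2 lower (28.6%, against 16.4%). The class median log2 change was 0.29, and it was -0.079 when the 2 genes with a mean under 50 (Sema3a and Sema3g) were left out.

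Class 4 held the deepest called falls of the family. Sema4b, a transmembrane semaphorin, was at 893 normalised reads in induced and 2170.2 in uninduced cells, 0.411 times the uninduced mean (adjusted p = 7.5e-43 in the authors' deposited table). Sema4d, the ligand of plexin B1 and known from lymphocytes as CD100, was at 709 in induced and 1583 in uninduced cells, 0.448 times the uninduced mean (adjusted p = 7.2e-31 in the authors' deposited table). Sema4a, which acts in the retina and on immune cells, fell to 84.3 in induced cells, against 147 in uninduced cells, or 0.572 times the uninduced mean (the authors' adjusted p = 0.0020, deposited table). These 3 genes were the only class 4 members called lower (50.0% of 6, against 16.4% of all tested genes).

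Sema4c and Sema4f rose (33.3% of the 6 class 4 genes, against 19.1% of all tested genes). Sema4c, a ligand of plexin B2, rose 2.53-fold to 1181 in induced cells, against 467 in uninduced cells (adjusted p = 1.9e-33 in the authors' deposited table). Exons of Sema4c share 334 bases, 7.84% of their length, with a transcript of the opposite strand in the GENCODE vM21 annotation, and since strand is not given in the sources used here reads of the 2 cannot be told apart. Sema4f, also a transmembrane member, rose 1.40-fold to 216 in induced cells, against 154 in uninduced cells (adjusted p = 0.024 in the authors' deposited table), which does not pass a threshold of 0.01. Sema4g was at 432 in induced and 409 in uninduced cells and was not called (1.06-fold, adjusted p = 0.80 in the authors' deposited table). Read per kilobase of exon, Sema4c made up 33.8% of class 4 in induced and 9.51% in uninduced cells, and Sema4b made up 27.0% in induced and 46.7% in uninduced cells. Sema4c had rank 1 within its class in induced cells and rank 3 in uninduced cells, by exon length and by coding length alike.

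Both class 5 genes were called higher (2 of 2, against 19.1% of all tested genes). These transmembrane proteins carry thrombospondin repeats and restrain neurites in the retina. Sema5b rose 3.75-fold to 518 normalised reads in induced cells, against 138 in uninduced cells (adjusted p = 7.2e-13 in the authors' deposited table). Sema5a was at 545 in induced and 289 in uninduced cells, 1.89-fold (adjusted p = 0.0015 in the authors' deposited table). The single class 7 gene, Sema7a, which promotes axon growth through integrins and also binds plexin C1, was at 109.9 in induced and 69.5 in uninduced cells (1.58-fold, adjusted p = 0.027 in the authors' deposited table), a call lost at a threshold of 0.01.

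In class 6 the largest rise was that of Sema6d, a transmembrane ligand of A-type plexins that also signals through its own cytoplasmic tail. Its mean was 750.3 normalised reads in induced and 48.4 in uninduced cells, 15.5-fold (the authors' adjusted p = 1.3e-44, deposited table), and 178 of the 3499 genes called higher had a ratio at least as high. Sema6c rose 1.49-fold to 413 in induced cells, against 276 in uninduced cells (adjusted p = 2.9e-04 in the authors' deposited table). Of the 4 class 6 genes 2 were thus called higher (50.0%, against 19.1% of all tested genes) and 0 lower (against 16.4%). The remaining members did not pass the threshold. Sema6a, which steers axons and granule cells through plexins A2 and A4, was at 1516 in induced and 1609.5 in uninduced cells (0.942 times, adjusted p = 0.66 in the authors' deposited table). Sema6b was at 166 in induced and 144 in uninduced cells (1.16-fold, adjusted p = 0.50 from the authors). Per kilobase of exon, Sema6d was 22.7% of the class in induced and 2.00% in uninduced cells. Sema6a was 46.2% of it in induced and 67.1% in uninduced cells. Per kilobase of coding sequence Sema6a was 52.4% in induced and 75.6% in uninduced cells, and Sema6d 25.2% and 2.21%.

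A-type plexins, which serve both the class 3 neuropilin complexes and class 6 ligands, were all called. Of the 4 genes 3 were called higher (75.0%, against 19.1% of all tested genes) and 1 lower (25.0%, against 16.4%). Plxna4, a receptor of sensory and sympathetic axons for Sema3a and class 6 ligands, was at 519 normalised reads in induced and 31.7 in uninduced cells, 16.4-fold in the authors' deposited table (adjusted p = 1.9e-08). Of the 3499 genes called higher, 166 had a ratio at least as high as that of Plxna4. Plxna2, a receptor of Sema6a in the hippocampus and cerebellum, rose 3.82-fold to 1190.4 in induced cells, against 312 in uninduced cells (adjusted p = 1.1e-43 in the authors' deposited table). Plxna3, a partner of neuropilin 2 in Sema3f signalling, was at 1298 in induced and 955 in uninduced cells (1.36-fold, adjusted p = 0.0034 in the authors' deposited table).

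Plxna1, the most abundant plexin per kilobase in both groups, was the A-type member that fell. It was at 5921 normalised reads in induced and 8142 in uninduced cells, 0.727 times the uninduced mean (adjusted p = 2.3e-09 in the authors' deposited table). Exons of Plxna1 share 970 bases, 10.7% of their length, with an antisense gene in GENCODE vM21, whose reads cannot be told apart from those of Plxna1 without strand. Per kilobase of exon, Plxna1 accounted for 66.2% of A-type plexin reads in induced and 84.3% in uninduced cells, and Plxna2 for 10.9% in induced and 2.64% in uninduced cells. Plxna4 accounted for 4.07% in induced and 0.23% in uninduced cells, the smallest share of the 4 in both groups. The order of the 4 genes was Plxna1, Plxna3, Plxna2, Plxna4 in both groups, by exon and by coding length.

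**Figure D3:**
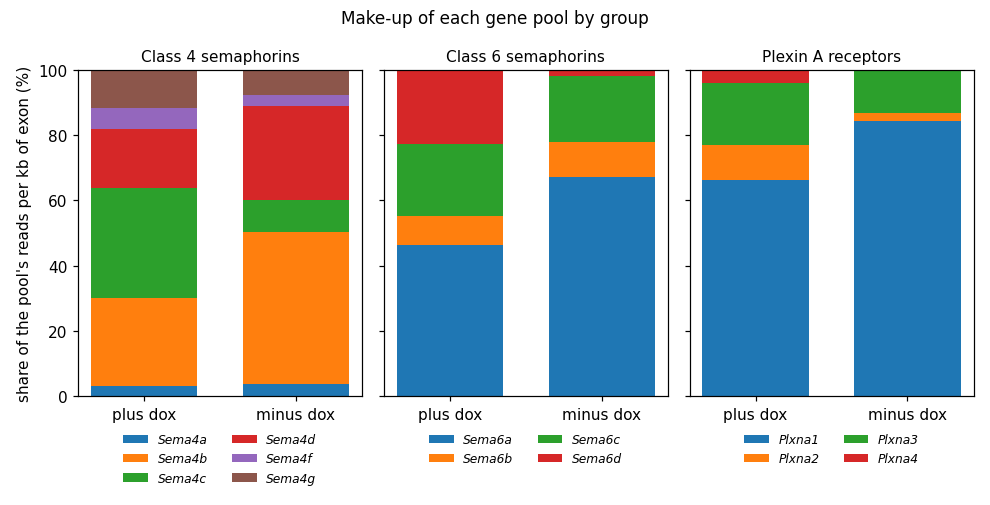
Share of each gene in the summed reads per kilobase of exon of class 4 semaphorins, class 6 semaphorins and A-type plexins, with induced cells in the left bar of each pair and uninduced cells in the right bar. Sema4c (33.8% against 9.51%), Sema6d (22.7% against 2.00%) and Plxna2 (10.9% against 2.64%) take larger shares in induced than in uninduced cells, and Plxna1 stays the largest A-type share in both.

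No B-type plexin was called higher (0 of 3, against 19.1% of all tested genes), and 1 was called lower (33.3%, against 16.4%). Plxnb2, the receptor of Sema4c and needed for closure of the neural tube, was at 3109 normalised reads in induced and 4344 in uninduced cells, 0.716 times the uninduced mean (adjusted p = 0.0041 in the authors' deposited table). Plxnb1, the receptor of Sema4d, was at 2778 in induced and 2535 in uninduced cells and was not called (1.10-fold, adjusted p = 0.33 in the authors' deposited table). Plxnb3 was at 3.47 in induced and 13.9 in uninduced cells and was not called (0.249 times, adjusted p = 0.073 from the authors). Plxnc1, the plexin of Sema7a, was higher at 159.6 in induced and 74.7 in uninduced cells (2.14-fold, adjusted p = 1.4e-05 in the authors' deposited table). Plxnd1, the endothelial receptor of Sema3e, was at 417 in induced and 334 in uninduced cells and was not called (1.25-fold, adjusted p = 0.064 in the authors' deposited table). Plxna1, Plxnb2 and Plxnb1 were the 3 most abundant plexins per kilobase in that order in both groups.

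The neuropilins moved in opposite directions. Nrp1, the coreceptor of Sema3a and of the growth factor VEGF, was at 562 normalised reads in induced and 112 in uninduced cells, 5.04-fold in the authors' deposited table (adjusted p = 3.6e-08). Nrp2, the coreceptor of Sema3f, was at 1043 in induced and 1887 in uninduced cells, 0.553 times the uninduced mean (adjusted p = 2.7e-19 in the authors' deposited table). The read ratio of Nrp1 to Nrp2 was 0.539 in induced and 0.0591 in uninduced cells, a 9.12-fold difference that does not depend on gene length and has no test of its own. Which neuropilin was the more abundant in induced cells cannot be said, since Nrp1 was 60.9% of neuropilin reads per kilobase of exon and 37.4% per kilobase of coding sequence. In uninduced cells Nrp1 was the minor one by either length, at 14.6% and 6.15%.

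Ligands set beside a receptor they are known to bind did not move as fixed pairs. Sema3a and Nrp1 both rose (by the authors' deposited table, 3.72-fold and 5.04-fold), as did Sema7a and Plxnc1 (1.58-fold and 2.14-fold) and Sema5b and Plxna3 (3.75-fold and 1.36-fold). By contrast Sema3f rose 1.34-fold while Nrp2 fell to 0.553 times by the authors' deposited table, and Sema4c rose 2.53-fold while Plxnb2 fell to 0.716 times. In the authors' deposited table Sema6d rose 15.5-fold while Plxna1 fell to 0.727 times. The other A-type plexins were called higher, Plxna4 16.4-fold, Plxna2 3.82-fold and Plxna3 1.36-fold in that deposited table. Whether a ligand and a receptor moved together thus depends on the receptor set beside the ligand. Sema4d fell without a call for Plxnb1, and Plxna2 and Plxna4 rose without a call for their ligand Sema6a. The pairs were listed from textbook knowledge after the values of the genes had been seen, and no test was made over them.

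Promoter sequence from the RefSeq table of build GRCm38.p6 matched 26 of the 31 members, some with several starts, and is shown for the most strongly induced ligand and for the neuropilins, whose calls were opposite. Plxna1, Plxna4, Sema3b, Sema3f and Sema6a had no entry. NeuroD1 is a basic helix-loop-helix factor, and such factors bind the E-box CANNTG, so these letters were searched on both strands of the 250 bases before each start and stand in capitals below. All 4 windows lie on the plus strand, and those of Sema6d belong to separate starts.
Sema6d, chr2:124089719-124089968: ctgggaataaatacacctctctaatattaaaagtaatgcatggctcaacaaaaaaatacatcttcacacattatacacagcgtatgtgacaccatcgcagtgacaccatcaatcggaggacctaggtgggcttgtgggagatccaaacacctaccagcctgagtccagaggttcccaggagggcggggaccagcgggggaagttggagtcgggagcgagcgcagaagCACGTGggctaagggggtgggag
Sema6d, chr2:124653331-124653580: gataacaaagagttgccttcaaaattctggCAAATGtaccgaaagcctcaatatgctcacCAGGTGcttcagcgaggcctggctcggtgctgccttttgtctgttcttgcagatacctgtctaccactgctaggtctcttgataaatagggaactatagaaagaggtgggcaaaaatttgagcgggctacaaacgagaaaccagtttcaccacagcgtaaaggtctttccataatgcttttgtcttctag
Nrp1, chr8:128358823-128359072: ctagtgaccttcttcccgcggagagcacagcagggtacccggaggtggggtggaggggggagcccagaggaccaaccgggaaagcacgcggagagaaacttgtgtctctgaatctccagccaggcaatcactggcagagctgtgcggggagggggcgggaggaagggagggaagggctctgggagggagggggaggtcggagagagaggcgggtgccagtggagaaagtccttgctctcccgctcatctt
Nrp2, chr1:62703067-62703316: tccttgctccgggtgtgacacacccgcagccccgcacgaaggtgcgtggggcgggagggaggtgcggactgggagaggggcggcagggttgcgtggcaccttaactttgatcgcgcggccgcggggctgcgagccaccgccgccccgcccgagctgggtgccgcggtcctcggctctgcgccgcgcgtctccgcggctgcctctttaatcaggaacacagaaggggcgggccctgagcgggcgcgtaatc

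Sema6d, which rose, had CACGTG before its upstream start and CAAATG and CAGGTG before its downstream start. The Nrp1 and Nrp2 windows hold no E-box. The letters CANNTG were in 19 of 37 member windows (51.4%) and in 66.2% of all 32851 windows of the table. Searches for the variants CAGATG and CAGCTG, which are themselves forms of the E-box, covered both strands as well. Neither variant was in a Sema6d window. The sequence CAGATG was in 2 member windows (5.41%, against 14.4% of all windows), and CAGCTG was in 6 member windows (16.2%, against 13.0% of all windows). Among the members called higher 9 of 16 windows held CANNTG, and among those called lower 6 of 13, and among those not called 4 of 8. In the same order CAGATG was in 0 of 16, 2 of 13 and 0 of 8 windows. CAGCTG was in 2 of 16, 1 of 13 and 3 of 8. A match describes letters and is not a binding site, no difference in these shares was tested, and these windows hold no distal element.

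Partners and mediators of semaphorin signalling were counted from lists chosen with earlier results of these data known. Collapsin response mediators and Mical genes, which carry the signal from the plexin complex to microtubules and actin, had 7 of 8 members called higher (87.5%, against 19.1% of all tested genes) and 0 lower (against 16.4%), with a median log2 change of 1.73. In the authors' deposited table Mical2, an actin-oxidising enzyme, was at 619 normalised reads in induced and 76.7 in uninduced cells (8.07-fold, adjusted p = 9.7e-73). By the authors' deposited table Dpysl3 rose 5.69-fold, Dpysl4 4.05-fold and Crmp1 3.20-fold. GTPases and their regulators had 11 of 20 members called higher (55.0%) and 0 lower, against the same shares of all tested genes, with a median of 0.26. Kalrn, an exchange factor of small GTPases, was at 2006 in induced and 124 in uninduced cells (16.2-fold, adjusted p = 3.2e-146 in the authors' deposited table), and Trio, its relative, and Rnd3 rose 2.38-fold and 2.40-fold by that deposited table. Arhgap35, listed as Grlf1, rose 1.35-fold there.

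Kinases of the pathway had 7 of 12 members called higher (58.3%, against 19.1% of all tested genes) and 2 lower (16.7%, against 16.4%), with a median of 0.41. Cdk5r1, the neuronal activator of Cdk5, was at 232 normalised reads in induced and 38.4 in uninduced cells (6.04-fold, adjusted p = 1.4e-13 in the authors' deposited table). The authors' deposited table gave rises of 2.71-fold for Pak3, 2.37-fold for Fyn and 1.82-fold for Gsk3b. Coreceptors and receptor partners had 7 of 18 members called higher (38.9%) and 4 lower (22.2%, against 16.4% of all tested genes and 20.7% of those averaging at least 10), with a median of 0.54. Trem2, at 0 in both groups, is counted among the 18. By the authors' deposited table the adhesion genes Nrcam, a partner of Nrp2, and Cntn2 rose 7.04-fold and 6.17-fold and the receptor kinase gene Met 2.25-fold, and the integrin gene Itga5 fell to 0.539 times its level in uninduced cells. Proteases that cut semaphorins or their receptors were split, with 2 of 6 called higher (33.3%) and 3 lower (50.0%). The authors' deposited table gave a rise of 8.32-fold for Pcsk5 and 1.68-fold for Adam10, and falls to 0.459 times for Pcsk6 and 0.771 times for Adam17.

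**Figure D4:**
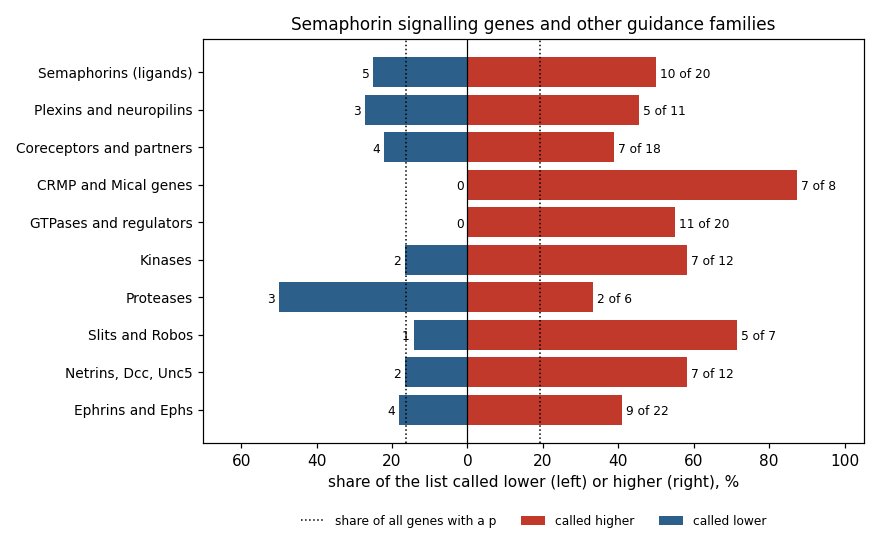
Share of each gene list called lower (blue, to the left) and higher (red, to the right) in induced against uninduced cells, with the number of genes at the bar ends and dotted lines at the shares of all tested genes (16.4% and 19.1%). Of the lists drawn, only the collapsin response mediator and Mical genes and the GTPases have no call to the left. Every other list, semaphorins and their receptors included, has calls on both sides.

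Other guidance families had more calls higher than lower. Slits and Robos had 5 of 7 called higher (71.4%) and 1 lower (14.3%), and netrins and their receptors 7 of 12 higher (58.3%) and 2 lower (16.7%). Ephrins and Eph receptors had 9 of 22 called higher (40.9%) and 4 lower (18.2%). Against 19.1% higher and 16.4% lower over all tested genes, the lower shares of these families were near the background. The difference of these shares from the 15 of 31 and 8 of 31 of the semaphorin system was not tested.

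Several members are also expressed by endothelial cells, blood cells or fibroblasts, whose markers were measured beside them. Over all tested genes 19.1% were called higher and 16.4% lower. Of 12 endothelial markers 2 rose (16.7%) and 3 fell (25.0%), with summed means of 1545 normalised reads in induced and 2498 in uninduced cells. The lower sum in induced cells came mainly from 1 gene, Pecam1, named after its values were seen. By the authors' deposited table Pecam1 was at 296 reads in induced and 1262 in uninduced cells. Of 10 blood cell markers 0 rose and 2 fell (20%), with sums of 427 in induced and 774 in uninduced cells. Most of the blood sum came from the 2 that fell, named after their values were seen. By the authors' deposited table Laptm5 was at 330 reads in induced and 535 in uninduced cells and Cd68 at 52.3 reads in induced and 165 in uninduced cells. Of 12 fibroblast markers 5 rose (41.7%) and 2 fell (16.7%), with sums of 3775 in induced and 2879.9 in uninduced cells. None of these markers was listed at 0 in both groups, and in induced cells Csf1r and Emr1, both of the blood list, were listed at 0. The part of such cells in the values of Nrp1, Plxnd1, Sema3g, Sema4a, Sema4d or class 3 ligands was not tested.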

How the data were processed

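Per the submitters' processing notes the RNA libraries were processed on build mm9 with DESeq, HTSeq 0.5.4p1, TopHat2 2.0.8, SAMtools 0.1.19 and FastQC 2.6.14, with no roles given. The authors' deposited table holds 1 mean per group, a signal of read counts after normalisation, apparently by DESeq size factors, that is never negative. It also holds the authors' ratio of induced over uninduced means (fold), its log2, and the p-values and adjusted p-values. The deposited adjusted p equalled a Benjamini-Hochberg adjustment over 18283 genes in 100% of cases at a relative tolerance of 1e-06. Another 3654 genes, at 0 in both groups, have no p. Deposited means sum to 17359374 in induced and 17303851 in uninduced cells, and library depth is unknown. Another deposited table has 4 library columns whose names match no label, so they were not used. No model was fitted here.

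Members and lists were chosen with earlier results of these data known. Every member is reported. Outside the family the text names Neurod1 and, per list, up to 4 called genes with the smallest adjusted p, besides genes listed at 0 (Trem2, Csf1r and Emr1), and other genes are said to be named after their values were seen. Log2 medians use a pseudocount of 1. Levels per kilobase use exon or coding length from GENCODE vM21, which is not the authors' annotation. The adjustment was checked on simulated p-values. Older symbols were matched through the GRCm38.p6 RefSeq table. Python 3.11.15, pandas 2.3.3 and numpy 2.4.6 were used. Alternatives were a threshold of 0.01, a 2-fold minimum, pseudocounts of 0.5 and 5, minimum means of 10 (with the adjustment recomputed) and 50, and equal totals. Coding length as the divisor was added after seeing the data.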

Additional observations from a re-analysis of the deposited data

How the results depend on the processing

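The threshold, fold minimum, pseudocount, minimum mean and scaling were varied over the counts and medians of the members, their classes and the signalling lists. Of these values 262 kept their direction and stayed within 1.5 times (counts) or 0.1 (log2 medians) of the reported value. Another 37 moved further and 1 changed sign. Part of the 262 was settled in advance. Equal totals left the adjusted p-values as they were and hardly changed the scale, so values under that setting could hardly move. Requiring a 2-fold change left 8 members called higher and 2 lower. Over all tested genes that minimum left 7.48% higher and 4.20% lower, the shares to set beside all 2-fold counts here. Ligands then had 4 higher and 2 lower calls, and receptors 4 higher and 0 lower. Under the same minimum 1 class 3, 1 class 4, 1 class 5, 1 class 6 and 0 class 7 genes were called higher, and 0 class 3, plexin A, plexin B and neuropilin genes lower. Among the lists it left 3 Slit and Robo genes, 3 GTPase genes, 3 kinases, 4 ephrin and Eph genes and 1 protease higher, and 0 coreceptors, 0 kinases, 1 protease, 1 netrin gene and 1 ephrin or Eph gene lower. A threshold of 0.01 left 1 class 3 gene lower, 1 class 4 gene higher and 0 class 7 genes higher. With genes of a mean under 10 left out, the median log2 change was 0.42 for all members, 0.17 for class 3, -0.18 for B-type plexins and 0.34 for coreceptors. At a minimum of 50 the class 3 median turned to -0.079, and the medians were -0.18 for B-type plexins, 0.041 for coreceptors, 0.25 for ephrins and Ephs and 1.14 for netrins. A pseudocount of 5 gave 0.34 for coreceptors and 0.34 for ephrins and Ephs. These shifts come from the genes left out or from the larger pseudocount, by construction. Per kilobase of coding sequence Nrp1 was 37.4% of neuropilin reads in induced and 6.15% in uninduced cells. By that length Sema3e was 78.9% and 77.3% of class 3 (71.8% and 70.3% by exon length). Sema6a was 52.4% and 75.6% of class 6 (46.2% and 67.1% by exon length). No paired analysis was possible because the group means carry no replicate numbers, and for the same reason the planned limma model and the fits without single libraries were not run. Library depth is unknown here, so no counting interval is given.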

Other observations

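Further partners of the neuropilins and of Sema3 complexes, outside the rule for named genes and chosen after their values were seen, moved in both directions. In the authors' deposited table the VEGF receptor gene Kdr, which pairs with Nrp1, was at 337 normalised reads in induced and 159 in uninduced cells (2.12-fold, adjusted p = 0.026), and Flt1, another VEGF receptor, rose 1.67-fold (adjusted p = 5.6e-04). L1cam, the adhesion partner of Nrp1 in Sema3a signalling, rose 2.16-fold (adjusted p = 1.2e-04) and its relative Chl1 4.53-fold to 32.4 in induced cells, against 7.15 in uninduced cells (adjusted p = 0.017), in the authors' deposited table. By the authors' deposited table Flt4, a further VEGF receptor, fell to 0.772 times (adjusted p = 0.041). No explanation of these values was tested.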
